A study of Homo sapiens with 6 samples.

Results

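The guanylate-binding proteins (GBPs) are a family of 7 genes in the human annotation used here, GBP1 to GBP7, which lie side by side on chromosome 1. They were taken from the array table as all non-control probe sets assigned to exactly 1 gene of the family. This gave 13 probe sets for 6 of the 7 genes, out of 54613 probe sets and 19775 genes. GBP7 had no such probe set and was not analysed here. The family was chosen by the difference between drug-tolerant and parental cells on these same arrays, so the values of its members in that contrast are a description and carry no test. RNA came from PC9, an EGFR mutant line of non-small cell lung cancer, in a stable derivative that holds a GFP vector in all 6 cultures. The drug-tolerant persisters (DTPs, n = 3 arrays) had been kept for 9 days in 2 µM erlotinib, an EGFR kinase inhibitor added at 80% confluency, and were harvested on day 10. Parental cells (n = 3 arrays) had received DMSO, the vehicle, and were harvested on day 3 at 100% confluency according to the labels, whereas the study's methods give 9 days for the vehicle as well. The drug, the days in culture and the cell density therefore cannot be told apart, nor can survival of a subset of cells and a change within cells. All cultures are from 1 line.

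GBPs are large GTPases related to the dynamins and best known as interferon-inducible proteins of cell-autonomous immunity. Interferon-γ drives their transcription through STAT and IRF factors that bind a gamma-activated sequence (GAS) or an interferon-stimulated response element (ISRE) near the gene. The proteins assemble on the membranes of intracellular bacteria and of damaged vacuoles, and GBP1, GBP2 and GBP5 end in a CaaX motif to which a prenyl lipid is attached.

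The start sites of 5 members were in the promoter table used here, from RefSeq on GRCh38.p14, with 250 bases before and 50 bases after the start of each gene. GBP2 and GBP5 were not in it. The core of the ISRE was searched as GAAA, NN and GAAA in a row (N is any base) and the core of the GAS as TTCNNNGAA, on both strands, with no overlap between matches of different motifs in these windows. An ISRE core was found in GBP1, GBP3 and GBP4, and in 3.57% of all 35116 promoters of the table. A GAS core of the form TTCNNNGAA was found in GBP3 alone of the 5, and in 7.66% of all promoters. GAS elements that depart from this strict form were not searched for. The lack of a match in GBP1 or another member therefore does not show that its window lacks a GAS. The windows of GBP6 and GBP7 held neither core as searched. A match is a description of the letters and not a binding site, and these values do not bear on whether a factor was bound. The 30 bases around each ISRE core are shown 5′ to 3′ along the gene, because they set the member with the largest difference beside one with a smaller difference and one that was not called. Capitals mark the core, which reads on the opposite strand. All 3 lie on the minus strand of chromosome 1, at chr1:89065316-89065345 for GBP1, chr1:89022845-89022874 for GBP3 and chr1:89198927-89198956 for GBP4.
GBP1: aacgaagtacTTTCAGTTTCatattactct
GBP3: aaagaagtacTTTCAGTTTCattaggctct
GBP4: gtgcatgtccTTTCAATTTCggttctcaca

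The core of GBP1 lay 127 to 118 bases before the annotated start, that of GBP3 lay 3 to 12 bases after it, and that of GBP4 spanned the start. The windows were lined up on the core, so the letters fixed by the search agree in every pair by design and count as identical positions. Over the 30 bases the windows of GBP1 and GBP3 were identical at 25 positions (83.3%), those of GBP1 and GBP4 at 16 and those of GBP3 and GBP4 at 16. With 30 bases on either side of the core, GBP1 and GBP3 shared 50 of 70 positions, against 24 for GBP1 and GBP4. The GAS core of GBP3 lay 15 to 7 bases before the start. The 150 bases before the start of GBP1 (chr1:89065209-89065358, minus strand), the member with the largest difference, and of GBP3 (chr1:89022867-89023016, minus strand) are shown with the cores that fall in them in capitals, the ISRE in GBP1 and the GAS in GBP3.
GBP1: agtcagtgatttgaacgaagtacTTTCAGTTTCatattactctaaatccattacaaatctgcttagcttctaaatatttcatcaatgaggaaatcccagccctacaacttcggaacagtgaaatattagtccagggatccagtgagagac
GBP3: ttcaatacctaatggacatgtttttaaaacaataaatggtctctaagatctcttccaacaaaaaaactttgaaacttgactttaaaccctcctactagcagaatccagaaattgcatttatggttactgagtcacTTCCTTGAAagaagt

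In DTPs 3 neighbouring members, GBP1, GBP2 and GBP3, were higher and the other measured members were not called. GBP1 was 46.8-fold higher, GBP3 6.17-fold and GBP2 5.29-fold, while the log2 fold changes of GBP4, GBP5 and GBP6 lay between -0.24 and 0.12. In RNA of a whole culture, fewer cells of a kind and less RNA per cell cannot be told apart. To be called, a gene or probe set needed a Benjamini-Hochberg adjusted p under 0.05 in limma and a fold over 1.5, as in the methods of the study. By that rule 3 of the 6 measured members were called higher and none lower, beside 8.08% of all genes called higher and 6.13% lower. Over probe sets 6 of the 13 were called higher and none lower, beside 7.56% higher and 4.93% lower among all probe sets. On 6 of the 13 all DTP arrays lay above all parental arrays, beside 22.4% of all probe sets, and on 2 they lay below, beside 27.5%. Since this contrast chose the family, nothing is read from these counts. The median log2 fold change was 1.26 over the 6 members, 0.12 over their 13 probe sets and -0.05 over all genes.

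**Figure D1:**
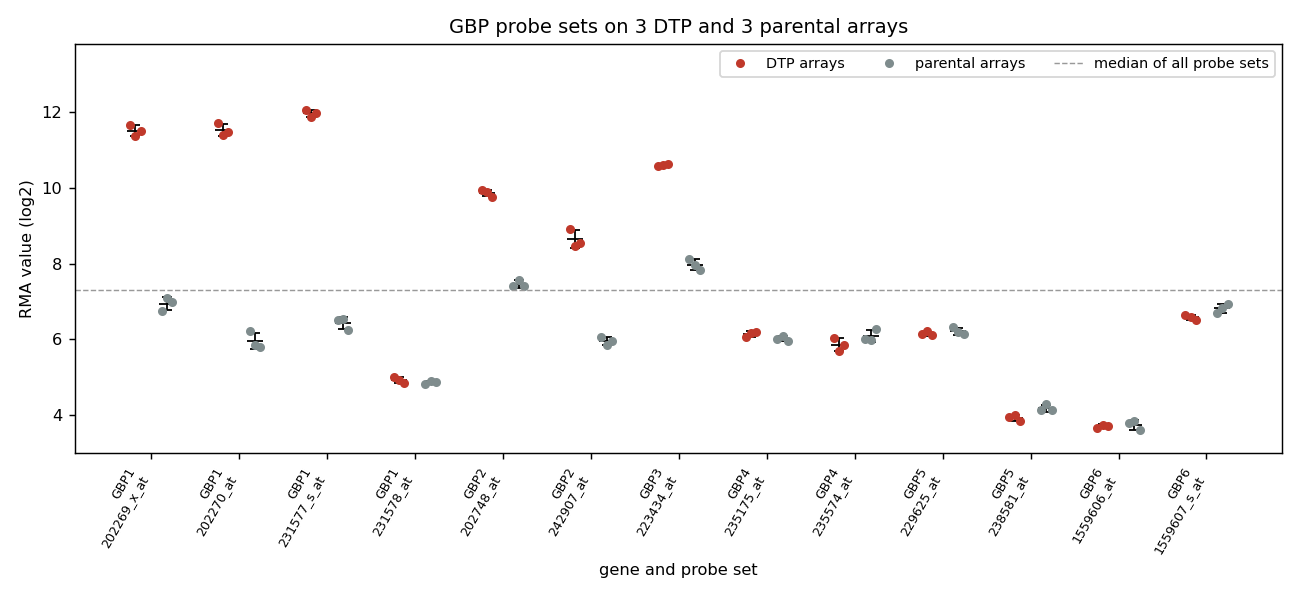
Log2 values of the 13 GBP probe sets (horizontal axis) on 3 DTP arrays (red) and 3 parental arrays (grey), with the mean and SD of each group in black and the median of all probe sets, 7.29, as a dashed line. On 6 probe sets of GBP1, GBP2 and GBP3 the DTP arrays sit between 8.47 and 12.06 and the parental arrays between 5.80 and 8.13, and the other 7 stay below the dashed line in both groups.

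The values are log2 summaries made by robust multi-array averaging (RMA), which gives no detection call. A probe set with little target still has a value, and the fold of a gene that was dim in one group understates its change. Levels of different probe sets cannot be set against each other, and only differences between arrays on the same probe set are compared. Errors of means are SD over 3 arrays, and errors of log2 fold changes are limma's SE.

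GBP1 is the founding member of the family and starts the protein coat that forms on bacteria in the cytosol. On the probe set taken for the gene, 231577_s_at, it had log2 values of 12.06, 11.87 and 11.98 in DTPs, against 6.50, 6.53 and 6.24 in parental cells. All 3 DTP arrays lay more than 5 units above the highest parental array, and the parental values were below the median of all probe sets. The means were 11.97 ± 0.10 in DTPs and 6.43 ± 0.16 in parental cells (SD, n = 3 each), a log2 fold change of 5.55 ± 0.09.

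GBP1 had 3 further probe sets. Among these, 202270_at, without a suffix for cross-hybridisation, read 11.71, 11.40 and 11.48 in DTPs, against 6.21, 5.86 and 5.80 in parental cells (47.6-fold, log2 fold change 5.57 ± 0.11). The probe set 202269_x_at, whose suffix marks probes that can bind other transcripts, read 11.67, 11.36 and 11.51 in DTPs, against 6.74, 7.09 and 6.99 in parental cells (23.8-fold, 4.57 ± 0.10). These 3 probe sets told the groups apart in the same way, with DTP replicate 1 the highest and DTP replicate 2 the lowest on each. The 4th, 231578_at, which also has no suffix for cross-hybridisation, did not. It read 5.01, 4.94 and 4.84 in DTPs, against 4.81, 4.89 and 4.87 in parental cells (log2 fold change 0.07 ± 0.07). Its groups overlapped, both means were far below the median of all probe sets, and the table gives it the same source accession as 231577_s_at. With the mean over the 4 probe sets the log2 fold change of GBP1 was 3.94, and with the brightest probe set, which was 202269_x_at counted in with the others, it was 4.57.

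GBP2, which carries a CaaX motif and joins the coat that GBP1 starts, read 9.93, 9.88 and 9.76 in DTPs, against 7.40, 7.57 and 7.40 in parental cells, on 202748_at. The groups were more than 2 units apart, and the parental arrays lay just above the median of all probe sets. The means were 9.86 ± 0.09 in DTPs and 7.46 ± 0.10 in parental cells (SD, n = 3 each), a log2 fold change of 2.40 ± 0.08. Its other probe set, 242907_at, read 8.91, 8.47 and 8.55 in DTPs, against 6.07, 5.85 and 5.96 in parental cells, a 6.42-fold difference (2.68 ± 0.11). The spread was wider there, with an SD of 0.23 in DTPs, and DTP replicate 1 was again the highest.

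GBP3, also an interferon-inducible member of the bacterial coat, was measured by 1 probe set, 223434_at. It read 10.58, 10.60 and 10.62 in DTPs, against 8.13, 7.97 and 7.82 in parental cells. The DTP arrays were closer together (SD 0.02) than the parental ones (SD 0.15), and the groups were 2.45 units apart at their nearest arrays. The log2 fold change was 2.63 ± 0.08. In the plot of fold changes under alternative processing GBP1, GBP2 and GBP3 stay at 2.37 or above on the log2 scale in each of 15 settings.

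**Figure D2:**
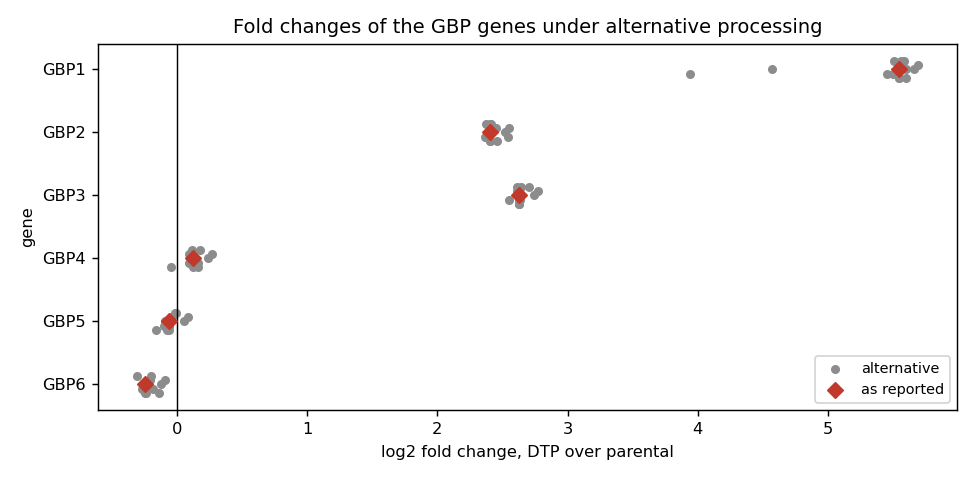
Log2 fold change, DTPs over parental cells (horizontal axis), for the 6 measured GBP genes (vertical axis), as reported (red diamonds) and under each alternative setting (grey points). GBP1 ranges from 3.94 to 5.70, GBP2 from 2.37 to 2.55 and GBP3 from 2.55 to 2.77, while GBP4 and GBP5 have values on both sides of 0.

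GBP4, a member without a CaaX motif, read 6.07, 6.16 and 6.20 in DTPs, against 6.01, 6.09 and 5.96 in parental cells, on 235175_at. The groups overlapped, with a log2 fold change of 0.12 ± 0.07. Its other probe set, 235574_at, gave 6.03, 5.70 and 5.84 in DTPs, against 6.00, 5.98 and 6.26 in parental cells, with the opposite sign (-0.22 ± 0.10). The sign of GBP4 also turned with the mean of both probe sets (-0.05). No direction is given for GBP4.

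GBP5, which promotes activation of the NLRP3 inflammasome, read 6.14, 6.21 and 6.11 in DTPs, against 6.32, 6.19 and 6.14 in parental cells, on 229625_at (log2 fold change -0.07 ± 0.07). These groups overlapped. On 238581_at all DTP arrays (3.94, 3.999 and 3.84) lay below all parental arrays (4.13, 4.28 and 4.12), by 0.12 at the nearest arrays, and the fold stayed under the minimum. The sign of GBP5 turned positive with centring of the arrays on genes of ribosomal proteins (0.05) or on spike-in controls (0.08).

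GBP6 read 6.64, 6.59 and 6.52 in DTPs, against 6.70, 6.83 and 6.94 in parental cells, on 1559607_s_at. The DTP arrays lay below the parental ones, by 0.06 at the nearest arrays, and the log2 fold change of -0.24 ± 0.08 was under the fold minimum. On 1559606_at the groups overlapped, with 3.66, 3.75 and 3.72 in DTPs and 3.80, 3.84 and 3.60 in parental cells. All 6 probe sets of GBP4, GBP5 and GBP6 had both group means below the median of all probe sets, and so did 231578_at of GBP1. Without a detection call, it is not known whether these probe sets measured their transcripts at all.

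The members stand in the annotation in the order GBP3, GBP1, GBP2, GBP7, GBP4, GBP5, GBP6, so the 3 that were higher are adjacent to one another at one end of the cluster. The 5 nearest measured genes on each side were compared, which the choice of the family did not use. Of these 10 none was called higher and 2 were called lower, beside 8.08% of all genes called higher and 6.13% lower. At an unadjusted p under 0.05, limma gave 1 higher and 4 lower among the 10, and the methods' t-test called 2 after adjustment. Of all 19775 genes 8797 had an adjusted p under 0.05 in limma, whatever the fold. Nothing is read from counts by p alone. Beside GBP3, the aminotransferase gene KYAT3 had a log2 fold change of -0.11 ± 0.08 (adjusted p = 0.27), the RNA-binding protein gene RBMXL1 -0.03 ± 0.07 (adjusted p = 0.72) and GTF2B, which encodes the general transcription factor TFIIB, 0.17 ± 0.07 (adjusted p = 0.048), under the fold minimum. The signs of KYAT3 and RBMXL1 turned with both centrings.

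On the other side the first gene was the pseudogene GBP1P1, with 6.69, 6.55 and 6.36 in DTPs, against 6.39, 6.37 and 6.43 in parental cells (0.14 ± 0.08, adjusted p = 0.21). Its groups overlapped and both means were below the median of all probe sets. Another 3 of the genes there encode subunits of the volume-regulated anion channel. LRRC8B was lower in DTPs, with 9.55, 9.40 and 9.70, against 10.38, 10.36 and 10.42 in parental cells (1.79-fold lower, adjusted p = 2.8e-06 by limma), but its call was lost with the mean of its 3 probe sets (-0.35). LRRC8D was 2.16-fold lower, with 11.82, 11.70 and 11.97 in DTPs, against 12.90, 12.94 and 12.99 in parental cells (adjusted p = 1.4e-07), and LRRC8C did not pass (-0.08 ± 0.07, adjusted p = 0.43), with a sign that turned under both centrings.

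**Figure D3:**
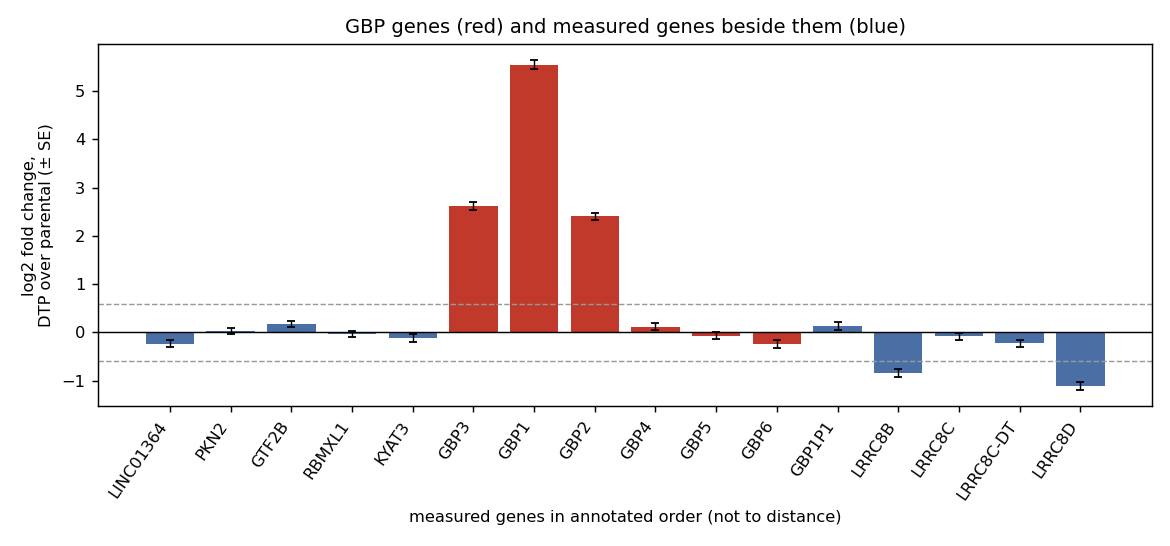
Log2 fold change, DTPs over parental cells (vertical axis, bars, with limma's SE as lines) for the 6 measured GBP genes (red) and the 5 nearest measured genes on each side (blue), in their annotated order on chromosome 1 and not to distance. Dashed lines mark a 1.5-fold difference, which GBP3 (2.63), GBP1 (5.55) and GBP2 (2.40) exceed upward and LRRC8B (-0.84) and LRRC8D (-1.11) downward.

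The interferon pathway and the partners of the GBPs were followed in 8 lists with 125 measured genes, of which 22 (17.6%) were called higher and 7 (5.6%) lower, beside 8.08% and 6.13% of all genes. Their median log2 fold change was 0.04, against -0.05 over all genes. The share of the called genes that were higher was 56.9% over all genes, and became 70.9% with centring on ribosomal protein genes and 74.2% with centring on spike-ins. These settings moved the median of all genes to 0.07 and 0.10. The methods' t-test gave the same number of calls as limma in each direction in all 8 lists. Counts at an unadjusted p under 0.05 stand beside 8797 of all 19775 genes with an adjusted p under 0.05 in limma. No lean of a list is read from them.

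None of 18 measured interferon ligand genes was called in either direction, and their median log2 fold change was -0.11. At an unadjusted p under 0.05 limma gave none higher and 6 lower, the methods' t-test called none, and for 17 of the 18 both means were below the median of all probe sets. The smallest p values were those of IFNA4 (log2 fold change -0.36 ± 0.07) and IFNA14 (-0.29 ± 0.07), each read by 1 probe set that can bind other transcripts.

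Of 10 receptor and Janus kinase genes 2 were called higher and none lower (at an unadjusted p under 0.05 limma gave 6 higher and 1 lower), with a median of 0.28. IFNGR1, the ligand-binding chain of the interferon-γ receptor, read 12.29, 12.28 and 12.26 in DTPs, against 11.43, 11.30 and 11.41 in parental cells (1.86-fold, adjusted p = 2.5e-07 by limma), and each of its 3 probe sets passed. For IFNGR2, the other chain of that receptor, named after its value was seen, all DTP arrays lay below all parental arrays. Its log2 fold change of -0.44 ± 0.06 (adjusted p = 1.0e-04 by limma) was under the fold minimum. IFNAR2, a chain of the type I interferon receptor, was 2.18-fold higher on the probe set taken (1.13 ± 0.08, adjusted p = 1.6e-07). Its call rested on that probe set, as the mean of its 3 probe sets gave 0.53 and the brightest one 0.04.

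Of 13 measured STAT and IRF genes 4 were called higher and none lower (at an unadjusted p under 0.05 limma gave 6 higher and none lower), with a median of 0.11. STAT3, which signals for the interleukin-6 family, was 2.40-fold higher (1.26 ± 0.07, adjusted p = 1.7e-08). Of its 4 probe sets 3 were called higher, and on the other the groups overlapped (-0.08 ± 0.07). The mean of its probe sets gave 0.80. IRF1, a factor that binds the ISRE and is itself induced by interferon-γ, read 9.05, 9.12 and 9.12 in DTPs, against 8.26, 8.29 and 8.21 in parental cells (1.79-fold, adjusted p = 3.7e-07). The arrays of the groups did not overlap, and its second probe set, at 0.50 on the log2 scale, stayed under the fold minimum. IRF9, the DNA-binding part of the type I interferon complex, was 1.70-fold higher (adjusted p = 4.2e-06). The fourth gene was STAT6 (1.63-fold), named after its value was seen.

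Among 12 negative regulators 3 were called higher and 1 lower (at an unadjusted p under 0.05 limma gave 6 higher and 2 lower), with a median of 0.14. PIAS1, an inhibitor of STAT binding to DNA, was 2.09-fold higher (adjusted p = 1.6e-07), and SOCS2, a suppressor of cytokine signalling, 1.93-fold (adjusted p = 1.6e-06). Of the 3 probe sets of SOCS2, 2 were called higher, and on the other the groups overlapped (0.04 ± 0.08). The mean of these probe sets gave 0.70 on the log2 scale. PIAS3 (log2 fold change 0.59), named after its value was seen, lay at the fold minimum, and its call was lost without DTP replicate 3 (0.55) or parental replicate 3 (0.52) and with array weights (0.56). PTPN2, a phosphatase that acts on Janus kinases and STATs, was lower by 0.81 ± 0.07 on the log2 scale (adjusted p = 1.2e-06), but the mean of its 7 probe sets gave -0.27, below the fold minimum.

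Of 28 other genes that interferon-γ induces 7 were called higher, 1 lower and 20 neither, with a median of 0.17. By limma 14 of the 28 were higher and 4 lower at an unadjusted p under 0.05. The adhesion receptor gene ICAM1 read 11.70, 11.76 and 11.46 in DTPs, against 9.70, 9.76 and 9.86 in parental cells (3.65-fold, adjusted p = 2.6e-09). The immunoproteasome subunit gene PSMB9 read 9.06, 9.18 and 9.16 in DTPs, against 7.29, 7.29 and 7.32 in parental cells (3.57-fold, adjusted p = 3.0e-10). PLAAT4, a phospholipase and acyltransferase, was 3.05-fold higher (adjusted p = 8.8e-07), with the widest spread of these 3 genes (SD 0.27 in DTPs and 0.25 in parental cells). The others called higher, named after their values were seen, were the chemokine gene CXCL11 (2.84-fold, both means below the median of all probe sets), SP110 (2.42-fold, with a log2 fold change of 0.61 over the mean of its probe sets), the lysosomal protease gene CTSS (2.10-fold) and TAP1, a subunit of the peptide transporter for antigen presentation (1.85-fold). CXCL10, a chemokine gene, and IDO1, which degrades tryptophan, did not pass, and the sign of each turned with the array left out. Both were named after their values were seen. They were picked from the 20 not called and do not stand for them. The one called lower was WARS1, a tryptophanyl-tRNA synthetase (2.39-fold lower, adjusted p = 8.4e-08), named after its value was seen.

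**Figure D4:**
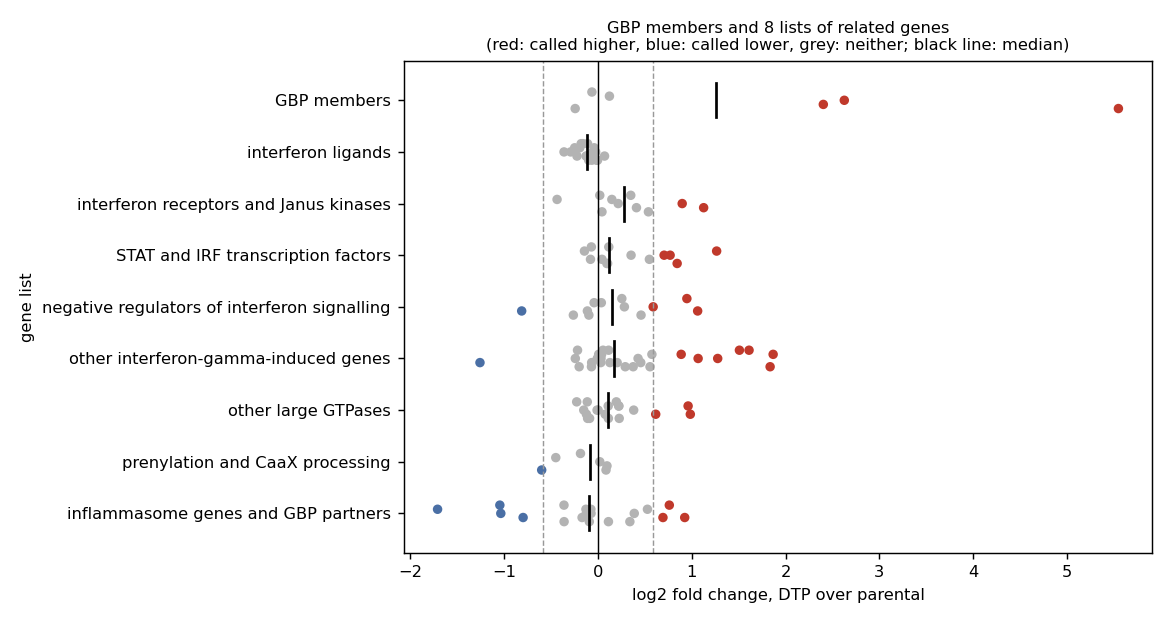
Log2 fold change, DTPs over parental cells (horizontal axis), for the 6 measured GBP genes and for 8 lists of related genes (vertical axis), 1 point per gene, red where called higher, blue where called lower and grey otherwise. Black lines are medians, 1.26 for the GBP members and between -0.11 and 0.28 for the lists, and dashed lines mark a 1.5-fold difference. The GBP family was chosen by this contrast, so its median is not compared with those of the lists.

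Among 19 other genes of the dynamin, atlastin, EHD and immunity-related GTPase families 3 were called higher and none lower (at an unadjusted p under 0.05 limma gave 8 higher and 1 lower), with a median of 0.11. EHD1, which acts in endocytic recycling, was 1.98-fold higher (adjusted p = 6.4e-07), with all 5 of its probe sets called. IRGQ, an immunity-related GTPase family member, was 1.95-fold higher (adjusted p = 3.3e-07), with 5 of 6 probe sets called. ATL3, an atlastin that fuses tubules of the endoplasmic reticulum, was 1.53-fold higher on the probe set taken (adjusted p = 6.2e-05). On another of its 3 probe sets all DTP arrays lay below all parental arrays (-0.50 ± 0.09, adjusted p = 9.6e-04 over probe sets), so no direction is given for ATL3. The call was lost without DTP replicate 3 (0.54) or parental replicate 2 (0.56), with array weights (0.58) and with the mean of its probe sets (0.07).

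Of 6 genes that attach and process prenyl groups at CaaX motifs 1 was called lower and none higher (at an unadjusted p under 0.05 limma gave none higher and 3 lower). This was FNTA, the subunit shared by the enzymes that attach farnesyl and geranylgeranyl lipids, with 11.21, 11.13 and 11.31 in DTPs, against 11.82, 11.83 and 11.80 in parental cells (1.52-fold lower, adjusted p = 1.4e-05). A second of its 3 probe sets was also called lower, and on the other all DTP arrays lay above all parental arrays (0.24, adjusted p = 0.013 over probe sets, under the fold minimum). The call was lost without DTP replicate 2 (-0.56), with cyclic loess (-0.55), with the mean of its 3 probe sets (-0.36), and with centring on ribosomal protein genes (-0.48) or spike-ins (-0.45).

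Among 19 inflammasome genes and GBP partners 3 were called higher and 4 lower, with a median of -0.09. By limma 6 of the 19 were higher and 7 lower at an unadjusted p under 0.05. PIM1, a kinase that phosphorylates GBP1 in human macrophages, read 8.82, 8.96 and 8.95 in DTPs, against 10.54, 10.65 and 10.67 in parental cells (3.27-fold lower, adjusted p = 9.9e-10). Its DTP arrays lay more than 1.5 units below its lowest parental array. LGALS8, a galectin that binds glycans on damaged vacuoles, was 2.07-fold lower (adjusted p = 1.1e-07), with 5 of 6 probe sets called, and the cytokine gene IL1B 2.05-fold lower (adjusted p = 9.5e-07). The remaining calls, named after their values were seen, were SFN, which encodes the 14-3-3σ protein that holds phosphorylated GBP1 in the cytosol (1.74-fold lower), and IL18 (1.90-fold), PYCARD (1.69-fold) and CASP1 (1.62-fold) higher. IL18 encodes a cytokine that inflammasomes release, PYCARD the inflammasome adaptor and CASP1 the inflammasome protease, and both means of CASP1 were below the median of all probe sets. The call of CASP1 was lost with the mean of its 5 probe sets (0.32), the brightest one (0.14) and dim probe sets left out (0.14).

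The genes whose pattern was most like that of each called member were found by the root mean square difference over the 6 arrays, after the parental mean of each gene was subtracted. Genes most like GBP1 were TUBA1A, an α-tubulin (0.13 log2 units, log2 fold change 5.69), MYL9, a myosin light chain (0.15, log2 fold change 5.36), and GASK1B (0.16, log2 fold change 5.54). With the mean of their 2 probe sets MYL9 had 2.63 and GASK1B 4.61. Most like GBP2 were the glutathione S-transferase gene GSTM4 (0.07), the follistatin-like gene FSTL3 (0.08) and the histone gene H2BC9 (0.09), and most like GBP3 were AHNAK2 (0.06), the proteoglycan gene SPOCK1 (0.06) and the BMP receptor gene BMPR2 (0.06). With the mean of their probe sets GSTM4 had a log2 fold change of 1.80, AHNAK2 1.42 and BMPR2 1.30. GBP2 and GBP3 differed from each other by 0.20 on the same measure, and from GBP1 by 2.23 and 2.07. With only 2 groups of 3 arrays, this measure mostly ranks genes by the size of their fold change.

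The 6 arrays were checked for features that moved with the groups. Pearson's r across all probe sets was 0.9968 to 0.9979 between arrays of a group and 0.9701 to 0.9754 between arrays of different groups. The log2 difference between 3′ and 5′ control probe sets was -0.18 in DTPs and -0.15 in parental cells for GAPDH, and 0.06 in DTPs and 0.17 in parental cells for β-actin (two-sided exact permutation p = 0.10 for each, the smallest that 3 against 3 arrays allow). Their part in the differences of the GBPs was not tested. Blood cell, endothelial and fibroblast markers were followed because GBPs are also expressed in such cells. None of 10 blood cell markers was called (at an unadjusted p under 0.05 limma gave 3 higher and 1 lower, and the methods' t-test called none). Of all 19775 genes 8797 had an adjusted p under 0.05 in limma, whatever the fold. The summed linear signal of the blood cell markers was 1098 to 1221 in DTPs and 1110 to 1129 in parental cells, and 7 of the 10 had both means under the median of all probe sets. Those with the smallest p were CSF1R (log2 fold change 0.55) and LYZ (-0.31), and CSF1R was called higher without parental replicate 2 (0.60) and under both centrings. With the mean of probe sets 1 blood cell marker and 1 fibroblast marker were called higher. Of 8 endothelial markers PECAM1 alone was called, 1.61-fold lower on the probe set taken, and this call was lost under both centrings. Of its 5 probe sets 4 were called lower, 3 of them 3.34- to 3.60-fold, with -1.29 on the log2 scale for the mean over all 5. The summed signal of the endothelial markers was 1763 to 1954 in DTPs and 2246 to 2421 in parental cells. None of 7 fibroblast markers was called or had an unadjusted p under 0.05 in limma, the methods' t-test called none, and their summed signal was 788 to 891 in DTPs and 828 to 891 in parental cells. With the smallest p among them, COL3A1 had a log2 fold change of 0.13 (-0.03 with the mean of its probe sets) and PDGFRA -0.12, which turned sign under both centrings. All 8 epithelial markers had group means above the median of all probe sets in at least one group, with a summed signal of 92200 to 98456 in DTPs and 77076 to 78462 in parental cells. KRT7, a keratin of simple epithelium, was called higher (1.96-fold), with a log2 fold change of 0.38 over the mean of its 4 probe sets.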

How the data were processed

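The authors deposited log2 summaries per probe set of Affymetrix Human Genome U133 Plus 2.0 arrays, made by RMA with the affy package and quantile normalisation, with package versions not given in the sources used here. Quantile normalisation hides a change of total mRNA per cell. Array medians were 7.27 to 7.32, and the number of arrays limits the precision. The methods describe replicates as biological in general. How this applies to these cultures is not given. The limma p-values here set the group difference against the spread among these arrays, moderated over all genes or probe sets. That spread may be technical. Of 54675 probe sets 62 were controls. A table of platform annotation gave 1 gene for 41091 of the rest, several for 1801 and none for 11721, and entries with several or none were tested but not named. Each gene was read by its brightest probe set over all 6 arrays, leaving out those with the suffix _x_at where another existed. DTPs were compared with parental cells in limma 3.58.1 (lmFit, then eBayes, under R 4.3.3, two-sided and without covariates), over genes and over probe sets, with Benjamini-Hochberg adjustment over all of them. SEs of named genes come from the fit over genes and those of further probe sets from the fit over probe sets. No p is printed for the GBPs. The limma fit was also run on simulated data with independent normal noise and fewer changed genes than were called here. That run checks the code and does not show that the p-values hold for these arrays.

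The members, the lists and the rules were chosen with earlier results of these data known. The 12 lists held 168 genes, 158 of which were measured. Genes were named by rule, namely all members, up to 3 called genes of each list with the largest change (in lists with no call, the 2 genes of smallest p), the 3 nearest measured genes on each side of the cluster and any other called among 5, and the 3 genes most like each called member. Genes outside this rule are marked as named after their values were seen. The alternatives were a replicate block, omission of each array in turn, centring on 52 ribosomal protein genes or 18 spike-in probe sets, cyclic loess, a filter on dim probe sets, the mean of probe sets or the brightest of all, trend and robust variances, array weights, the methods' t-test and a fold over 2. Promoters are those of RefSeq, and gene order that of its annotation, since the array files name no genome build.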

Additional observations from a re-analysis of the deposited data

How the results depend on the processing

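The same 3 members, GBP1, GBP2 and GBP3, were called higher under all 17 alternatives, and GBP4, GBP5 and GBP6 were called in none, except that leaving out dim probe sets removed them from the fit. A fold minimum of 2 left 1110 genes called (679 higher and 431 lower), 2571 probe sets, 13 of the pathway genes and 1 chromosome neighbour. With the mean of probe sets 1 chromosome neighbour was called. Centring on spike-ins left 795 genes called lower. The negative log2 fold change of RBMXL1 became 0.00 without DTP replicate 1, and without single arrays it ran from -0.071 to 0.00. Signs turned under centring on ribosomal protein genes for PDGFRA (0.002), RBMXL1 (0.083), KYAT3 (0.004) and LRRC8C (0.039), and under centring on spike-ins for PDGFRA (0.033), RBMXL1 (0.114), KYAT3 (0.035) and LRRC8C (0.07). Without single arrays CXCL10 ran from -0.042 to 0.078 and IDO1 from -0.038 to 0.126. COL3A1 turned to -0.034 with the mean of probe sets. The methods' t-test with the fold minimum gave 2806 genes unadjusted and 2774 after adjustment. Deviations of same-numbered arrays from their group means had r of -0.12, 0.02 and -0.06. With 3 arrays per group these values cannot settle whether same-numbered cultures shared more than a number. With the replicate number as a block 2809 genes and 6820 probe sets were called, within 1.5 times the counts without it, and it moved no call of a member. Parental values of GBP1 below the median of all probe sets leave its fold uncertain in size.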
